A study of Mus musculus with 4 samples.

Results

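The 32 genes described here code for the PPAR receptors and a coactivator, the building and transport proteins of the peroxisome, and the enzymes of fatty acid oxidation. They were taken by symbol from the gene lists of the deposited matrices, and all 32 were among the 33456 genes listed. Dissociated dorsal root ganglia (DRG), the ganglia that hold the cell bodies of sensory neurons, were profiled as single cells by a droplet method that counts each captured RNA molecule once by a unique molecular identifier (UMI) read at its 3′ end. There were 4 libraries from C57BL/6 mice of 8 to 12 weeks of age, females according to the methods. The 2 control libraries came from uninjured L4 ganglia, and the 2 injury libraries from L4 ganglia taken 3 days after a sciatic nerve crush (the methods name L4 and L5). Ganglia were digested with papain and collagenase and sorted for live cells before capture. The study describes its replicates as independent experiments on batches of cells pooled from several mice. P-values for injury therefore measure the spread between such pools and not between single animals. Those for contrasts between cell types rest on the scatter left after differences between libraries are taken out.

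The 6095 cells that passed the study's limits on UMIs, genes and mitochondrial RNA were assigned to types by a gate on marker genes, none of which is among the 32. A cell was given a type where it held at least 3 of its markers and at least 2 more than of any other type, which placed 4845 cells in the 12 types compared. Each is written as "like" because the names rest on those markers. Satellite glial cells (SGC), the glia that enwrap neuronal cell bodies, gave the most (1440 cells), followed by fibroblast-like (1134) and macrophage-like (1010) cells. The median cell held between 1690 UMIs (nonmyelinating glia-like) and 9365 UMIs (neuron-like), and 3956 in the SGC-like cells. Genes outside the gate led in the type they should mark, such as *Kdr* in endothelial-like cells, except *Cdh19*, which was higher in the nonmyelinating glia-like cells (25 cells) than in SGC-like cells, and *Cd68*, which was higher in macrophage-like than in monocyte-like cells. Control replicate 1 stood apart by its makeup, with 75 SGC-like cells against 273 to 644 in the other libraries, and any 2 libraries shared 1 to 6 barcodes. Levels are CPM, the UMIs of a gene divided by all UMIs of a type in a library and scaled to 1000000, given as the mean ± SD over libraries with at least 10 such cells.

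PPARα, PPARδ and PPARγ, encoded by *Ppara*, *Ppard* and *Pparg*, are nuclear receptors that bind fatty acids and their derivatives and switch on genes of lipid handling together with a retinoid X receptor. Peroxisomes shorten very long and branched fatty acids and break down hydrogen peroxide, while mitochondria take up long-chain fatty acids through the carnitine shuttle and oxidize them in repeated cycles. Tissues that burn fat, such as liver and muscle, rely on PPARα, and fat cells and macrophages are known for PPARγ.

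Among types with more than 3 UMIs of a gene, SGC-like cells held the highest level of 15 of the 32 genes, more than any other type. The share of all genes led by a type was not counted, so the counts of leads have no background beside them. SGC-like cells were also the largest type, and 36.1% of all genes tested were higher there than the mean of the other types. Neuron-like, pericyte-like and smooth muscle-like cells led 3 genes each, endothelial-like and nonmyelinating glia-like cells 2 each, and Schwann-like, erythroid-like, monocyte-like and neutrophil-like cells 1 each. Types with 3 UMIs or fewer of a gene were left out of this order, because so few counts in a small type give a high but unsteady CPM. Large types pass this floor more easily, which favours leads of SGC-like cells for rare genes. It left 2 types for *Ppara* and 3 each for *Pex11a*, *Ehhadh* and *Pdk4*, all counted as SGC-like leads. A lead of this kind often lay within the spread between libraries. For *Pex14*, *Pex19*, *Acaa1a*, *Scp2*, *Acadm*, *Acads*, *Hadh*, *Hadha* and *Pla2g7* the fitted difference from the next type even had the opposite sign to the mean CPM. In pairwise contrasts between types (quasi-likelihood test of edgeR, library as block, p-values adjusted after Benjamini-Hochberg over 13821 genes), the leading type was separated from the next for 2 genes, *Pex11a* and *Acaa2*, both led by SGC-like cells.

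**Figure D1:**
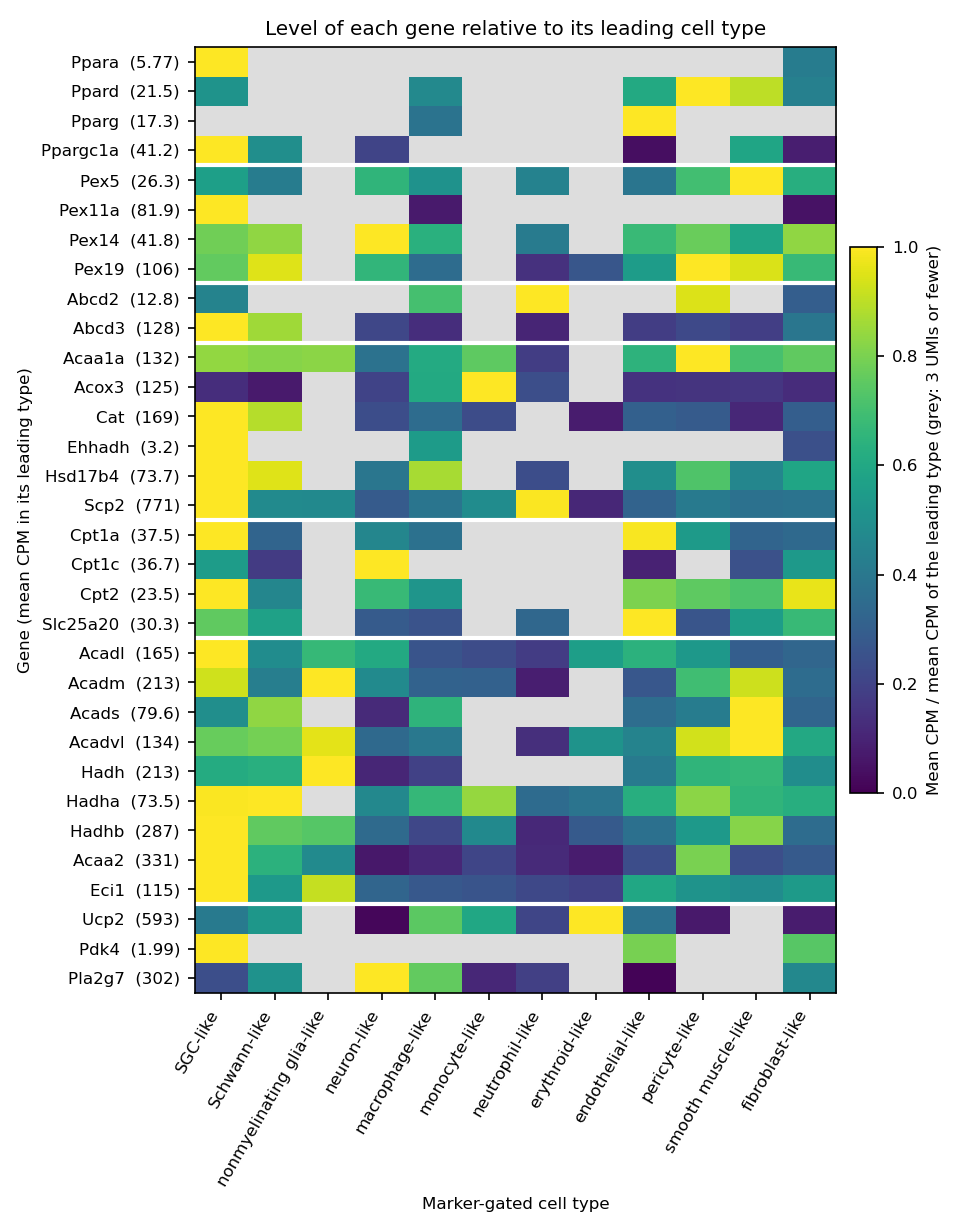
Mean level of each of the 32 genes (rows, grouped by role) in the 12 marker-gated cell types (columns), divided by the level in the leading type, with that level in CPM beside the name. Grey cells hold 3 UMIs or fewer in the libraries used. SGC-like cells are the brightest column, *Pex11a* and *Ppara* are grey or dark in nearly all other types, and *Pparg*, *Acox3* and *Ucp2* are brightest elsewhere.

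Against the mean of the other 11 types, 10 of the 32 genes were more than 4-fold higher in SGC-like cells at an adjusted p under 0.05, where 16.7% of all genes tested were. They were *Pex11a*, *Ppargc1a*, *Abcd3*, *Ppara*, *Cpt1c*, *Cat*, *Pla2g7*, *Acaa2*, *Ucp2* and *Hadh*. Under alternative settings the log2 fold had lows of 0.28 for *Pla2g7* (2.47 in the main fit), 0.35 for *Ucp2* (2.13) and 1.20 for *Hadh* (2.05). A fold over the mean of the others does not mean the highest level, and *Pla2g7* and *Ucp2* were lower in SGC-like than in macrophage-like cells. Without the size limit, 26 of the 32 were higher at an adjusted p under 0.05 and none was lower, beside 36.1% and 1.47% of all genes. The median log2 fold change was 1.61 over the 32 genes and 0.71 over all genes. Among the 6 types with at least 10 cells in every library (SGC-like, Schwann-like, macrophage-like, neutrophil-like, endothelial-like and fibroblast-like), 31 of the 32 genes could be tested. There the median was 0.94 over the 31 genes and 0.29 over all genes, 20 of the 31 were higher in SGC-like cells (28.4% of all genes), and 6 were more than 4-fold higher (12.2% of all genes). Both the low-count filter and the test tool moved the number above 4-fold in all 12 types: it was 5 with the filterByExpr rule of edgeR, which drops the rarest transcripts and was added after seeing the data, and 6 with DESeq2. With filterByExpr *Ppara*, *Ppargc1a* and *Cpt1c* were dropped and so not tested, while *Hadh* and *Ucp2* were tested and no longer passed.

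In the other types the members enriched more than 4-fold numbered 5 in Schwann-like cells (8.78% of all genes), 5 in macrophage-like (15.5%), 4 in fibroblast-like (18.2%), 2 in neuron-like (14.1%), 2 in endothelial-like (14.9%), 2 in monocyte-like (5.01%) and 2 in neutrophil-like cells (7.29%). Erythroid-like (5.1%) and smooth muscle-like cells (7.38%) had 1 each, and pericyte-like (9.3%) and nonmyelinating glia-like cells (1.71%) had none. Several of these counts were not stable. The Schwann-like count was 1 among the types with 4 libraries and 3 without control replicate 1 or with a stricter gate. The macrophage-like count was 3 with filterByExpr and among the types with 4 libraries, and the fibroblast-like count was 1 with a stricter gate and 2 with DESeq2. The endothelial-like count was 0 with filterByExpr or DESeq2 and 1 without control replicate 2 or without injury replicate 2, and the neuron-like count was 1 with filterByExpr. The genes missing with filterByExpr in macrophage-like, endothelial-like and neuron-like cells were dropped by that filter and not tested. Without the upper limits on UMIs and genes, *Ppargc1a* was enriched in neuron-like cells as well.

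The receptors split by cell type. *Ppara* (ENSMUSG00000022383), the receptor that drives fatty acid oxidation, was rare, with 53 UMIs in the compared cells, of which 38 were in SGC-like cells. Its level there was 4.70 and 3.27 CPM in the control libraries and 8.27 and 6.85 CPM in the injury libraries, replicate 1 being given first here and throughout. All of these lay above the 4 fibroblast-like values, which ran from 1.69 to 3.12 CPM on 12 UMIs. The SGC-like value of control replicate 1 rests on 1 UMI. The mean of 5.77 ± 2.22 CPM (SD, n = 4) in SGC-like cells was 1.21 ± 0.55 (SE) above the fibroblast-like level on the log2 scale, which missed the threshold (edgeR adjusted p = 0.0732). Macrophage-like and endothelial-like cells held no *Ppara* UMI in 1010 and 445 cells, so that at most 0.297% and 0.674% of cells may have one, and SGC-like cells were separated from both. They were not separated from the remaining 9 types. Among these were Schwann-like cells with 2 UMIs, where the difference was 1.09 ± 0.99 on the log2 scale (edgeR adjusted p = 0.553). Across all types *Ppara* was 3.79 ± 0.71 above the mean of the others in SGC-like cells (edgeR adjusted p = 5.81e-06), a fitted size that depends on how types at 0 are handled and is no bound. DESeq2 gave 2.20 and no adjusted p for this gene.

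*Pparg* (ENSMUSG00000000440), the receptor best known from fat cells and macrophages, showed a different pattern. Of its 73 UMIs, 38 fell in endothelial-like and 27 in macrophage-like cells, and none in the 1440 SGC-like cells, so that at most 0.208% of them may have one. Its endothelial-like level was 8.999 and 15.0 CPM in the control libraries and 27.9 and 17.2 CPM in the injury libraries. In macrophage-like cells it was 11.1 and 7.74 CPM in the control and 4.78 and 2.78 CPM in the injury libraries. The ranges of both types overlapped, and the difference of 1.16 ± 0.50 on the log2 scale missed the threshold (edgeR adjusted p = 0.0584). Both types stood more than 4-fold above the mean of the others, endothelial-like cells by 4.69 ± 0.67 and macrophage-like cells by 3.42 ± 0.75 on the log2 scale, though neither passed with DESeq2 (adjusted p = 0.133 and 0.329). *Pparg* and *Slc25a20* were the 2 of 32 enriched in endothelial-like cells, where 14.9% of all genes were. *Ppard*, the most broadly used of the receptors, had more than 3 UMIs in 6 types, with means from 9.35 CPM in fibroblast-like to 21.5 CPM in pericyte-like cells. Its leading type was separated from 1 of the other 11 and no type was enriched.

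*Ppargc1a* (ENSMUSG00000029167) codes for PGC-1α, a coactivator of the PPARs that promotes mitochondrial biogenesis. Its SGC-like level was 37.6 and 46.2 CPM in the control and 33.1 and 48.0 CPM in the injury libraries, a mean of 41.2 ± 7.07 CPM on 257 UMIs. The conditions overlapped fully. Smooth muscle-like cells followed at 24.2 ± 7.46 CPM (n = 3) on 7 UMIs, and Schwann-like cells at 20.3 ± 19.0 CPM (n = 4) on 13 UMIs. SGC-like cells were separated from 8 of the other 11 types but not from these (edgeR adjusted p = 0.441 and 0.084) nor from nonmyelinating glia-like cells, which held no UMI of it in 25 cells. A UMI of *Ppargc1a* was seen in 16.0% of SGC-like cells (95% exact interval 14.2 to 18.04%) and in 0.297% of macrophage-like cells at a similar median depth of 4092.5 UMIs. Thinned to 1000 UMIs per cell, these shares were 3.82% and 0.0454%.

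**Figure D2:**
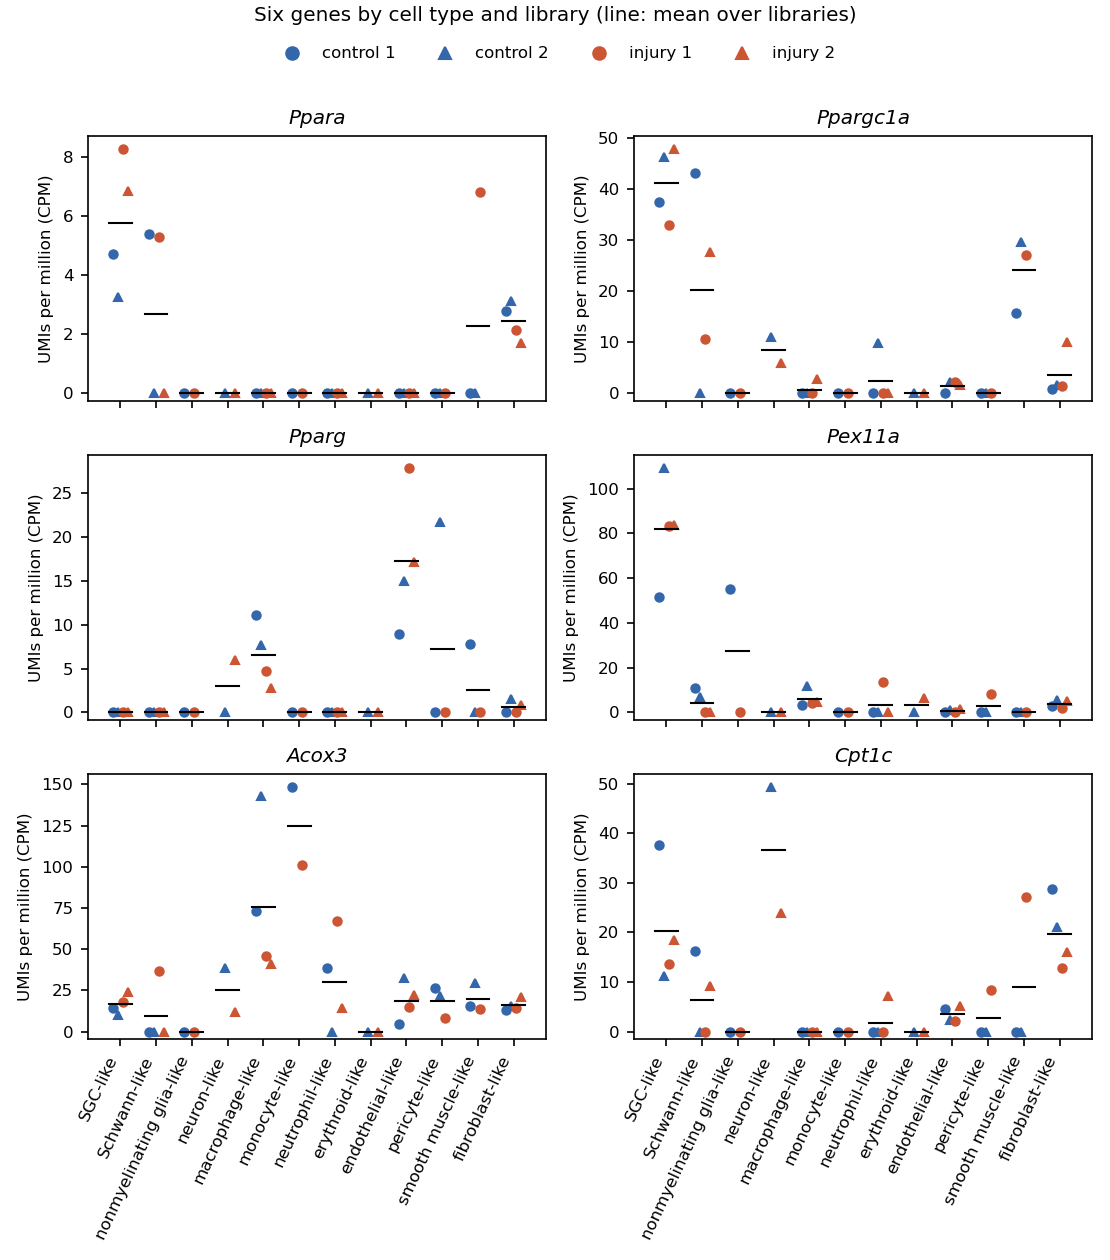
Level in CPM (vertical axes) of 6 genes in each cell type and library, with controls in blue, injury in red, circles for replicate 1 and triangles for replicate 2, and a line at the mean. All 4 SGC-like values of *Pex11a* lie between 51.7 and 109.3 CPM, above every other point but the one of 55.3 CPM in nonmyelinating glia-like cells, which is 1 UMI. All 4 SGC-like values of *Ppara* lie above the fibroblast-like ones, and that of control replicate 1 is 1 UMI.

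Among the peroxisome biogenesis genes, *Pex11a* (ENSMUSG00000030545) was the most restricted. It codes for a membrane protein that lets peroxisomes elongate and divide, and is a textbook PPARα target. SGC-like cells held 568 of its 619 UMIs, with 51.7 and 109.3 CPM for the control pair and 83.1 and 83.6 CPM for the injury pair. The lowest value, from control replicate 1, rests on 11 UMIs in 75 cells. No macrophage-like library exceeded 11.6 CPM and no fibroblast-like library 5.47 CPM, so the SGC-like libraries did not overlap with those types. The mean of 81.9 ± 23.6 CPM (n = 4) was 3.73 ± 0.31 above the macrophage-like mean of 5.99 ± 3.79 CPM on the log2 scale (edgeR adjusted p = 3.25e-20), in a contrast where 51.4% of all genes were called. SGC-like cells were separated from 10 of the other 11 types, the exception being the nonmyelinating glia-like cells with 1 UMI. A UMI of *Pex11a* was found in 27.8% of SGC-like cells (95% exact interval 25.5 to 30.2%), against 2.08% of macrophage-like and 1.68% of fibroblast-like cells, types of similar depth (medians of 4092.5 and 4087 UMIs). At 1000 UMIs per cell the shares were 7.36%, 0.626% and 0.359%.

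The import receptor *Pex5*, the docking protein *Pex14* and the membrane protein chaperone *Pex19* were spread widely. *Pex5* had more than 3 UMIs in 9 types and *Pex14* also in 9, with means of 10.2 to 26.3 CPM and 17.4 to 41.8 CPM, and for neither was the leading type separated from any other type. *Pex19* ranged from 15.2 CPM in neutrophil-like to 105.7 CPM in pericyte-like cells, with Schwann-like cells next at 100.4 CPM and not separated. Summed over the 4 biogenesis genes, SGC-like cells reached 209.7 ± 29.3 CPM and pericyte-like cells 159.0 ± 47.1 CPM. Of the SGC-like sum 81.9 CPM came from *Pex11a*, and SGC-like cells led none of *Pex5*, *Pex14* and *Pex19*.

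Promoter windows were available for 28 of the 32 genes, as 33 windows of 250 bases before and 50 after the RefSeq start (assembly GRCm38.p6, which is the mm10 build of the files). They were searched on both strands for AGGTCA, the core site bound by PPARs and many other nuclear receptors, and for the DR1 element, a direct repeat of that site with 1 base between the copies, in an exact form that contains AGGTCA and in a relaxed form with the fourth base of each copy free. AGGTCA was found in 8 of the 33 windows, belonging to *Acadm*, *Acadvl*, *Cat*, *Cpt1a*, *Cpt1c*, *Pparg* and *Scp2*, and in 16.3% of all 32851 windows of the table. The exact and relaxed DR1 forms occurred in 0.0396% and 0.381% of all windows and in none of the 33, which says only that these letters are not in these windows. The *Pex11a* window (chr7:79743082-79743381, minus strand) is shown because the gene gave the clearest cell type contrast. The windows of *Cat* (chr2:103485104-103485403, minus strand) and *Acadm* (chr3:153944594-153944893, minus strand) are shown as those of an SGC-enriched and a widely shared gene that hold the core site, and that of *Hadhb* (chr5:30155003-30155302, plus strand) because it overlaps the *Hadha* window by 228 bases. All read 5′ to 3′ on the strand of the gene named, with AGGTCA or its complement in capitals and all else in lower case.
Pex11a: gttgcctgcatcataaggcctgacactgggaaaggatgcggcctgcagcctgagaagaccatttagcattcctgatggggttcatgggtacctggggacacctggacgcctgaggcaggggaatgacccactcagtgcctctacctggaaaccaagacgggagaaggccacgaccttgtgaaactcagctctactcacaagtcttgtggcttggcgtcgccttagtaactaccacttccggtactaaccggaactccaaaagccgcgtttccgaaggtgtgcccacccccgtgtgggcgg
Cat: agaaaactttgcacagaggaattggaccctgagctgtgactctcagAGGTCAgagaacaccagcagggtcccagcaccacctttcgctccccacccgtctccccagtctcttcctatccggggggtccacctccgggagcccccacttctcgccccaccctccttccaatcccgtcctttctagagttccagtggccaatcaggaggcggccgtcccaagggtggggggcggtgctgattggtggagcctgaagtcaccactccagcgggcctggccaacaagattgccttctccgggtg
Acadm: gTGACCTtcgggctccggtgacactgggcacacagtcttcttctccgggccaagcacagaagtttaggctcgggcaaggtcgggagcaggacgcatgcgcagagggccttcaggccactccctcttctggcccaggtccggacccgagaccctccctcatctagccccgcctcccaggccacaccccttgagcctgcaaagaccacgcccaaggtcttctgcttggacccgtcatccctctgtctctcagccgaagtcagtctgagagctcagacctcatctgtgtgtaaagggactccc
Hadhb: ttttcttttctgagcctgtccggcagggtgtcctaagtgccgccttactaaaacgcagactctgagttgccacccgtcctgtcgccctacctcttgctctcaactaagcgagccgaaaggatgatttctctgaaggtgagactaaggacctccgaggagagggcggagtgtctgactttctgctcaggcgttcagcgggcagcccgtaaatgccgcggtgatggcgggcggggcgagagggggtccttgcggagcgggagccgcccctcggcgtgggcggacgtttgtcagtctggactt

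Peroxisomal transporters bring fatty acids into the organelle. *Abcd3*, which carries branched-chain and dicarboxylic acids, was shared by the satellite and myelinating glia. It was at 131.6 and 135.0 CPM in control and at 104.2 and 142.6 CPM in injury SGC-like cells, and at 90.5 to 132.2 CPM in the 4 Schwann-like samples, so the types overlapped. The difference of 0.33 ± 0.24 on the log2 scale missed the threshold (edgeR adjusted p = 0.415), and SGC-like cells were separated from each of the remaining 10 types. Fibroblast-like cells came next at 50.3 ± 11.6 CPM, and macrophage-like cells had 16.6 ± 4.17 CPM. *Abcd2*, a transporter of very long and polyunsaturated fatty acids, was low in every type, and enriched over the mean of the others in neutrophil-like cells (6 UMIs, 12.8 ± 6.48 CPM) and macrophage-like cells (39 UMIs, 9.04 ± 4.39 CPM). SGC-like cells, at 5.71 ± 2.65 CPM, were not separated from either (edgeR adjusted p = 0.114 and 0.063).

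Of the peroxisomal enzymes, *Cat*, catalase, which breaks down hydrogen peroxide, followed the glial pattern of *Abcd3*. SGC-like cells gave 122.2 and 184.5 CPM in control and 149.3 and 218.6 CPM in injury libraries, and Schwann-like cells 86.3, 167.1, 116.4 and 230.4 CPM in the same order. In both types replicate 2 was the higher one in each condition. The mean of 168.7 ± 41.9 CPM in SGC-like cells was 0.43 ± 0.23 above the Schwann-like mean on the log2 scale (edgeR adjusted p = 0.232) and separated from every other type. The next, macrophage-like cells, had 59.7 ± 18.4 CPM. *Scp2*, the sterol carrier protein with peroxisomal thiolase activity, was found in all 12 types. It reached 771.0 ± 81.7 CPM in SGC-like and 765.2 ± 65.4 CPM in neutrophil-like cells (n = 4 each). These were not separated, the fitted difference of -0.39 ± 0.22 on the log2 scale (SGC-like minus neutrophil-like, edgeR adjusted p = 0.176) having the opposite sign to the means. SGC-like cells exceeded the other 10 types. Neutrophil-like cells in turn were 1.47 ± 0.23 above macrophage-like cells on the log2 scale (edgeR adjusted p = 9.79e-08).

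*Acox3*, the oxidase for branched-chain fatty acids, was led by immune types. Monocyte-like cells gave 148.6 CPM in control replicate 1 and 101.2 CPM in injury replicate 1 on 16 UMIs, the other 2 libraries holding fewer than 10 such cells. Macrophage-like cells gave 73.3 and 143.2 CPM in control and 45.8 and 40.8 CPM in injury libraries on 262 UMIs, and SGC-like cells 14.1 and 10.3, then 17.8 and 24.0 CPM. All macrophage-like values lay above all SGC-like ones, by 2.15 ± 0.28 on the log2 scale (edgeR adjusted p = 1.36e-10). Macrophage-like cells had 5 of the 32 genes enriched more than 4-fold, *Acox3*, *Abcd2*, *Pparg*, *Ucp2* and *Pla2g7*, near the 15.5% of all genes. *Hsd17b4*, a bifunctional enzyme of the peroxisomal pathway, and *Acaa1a*, its thiolase, had means up to 73.7 CPM in SGC-like and 131.8 CPM in pericyte-like cells, with leads that were not separated from 3 and 8 other types. *Ehhadh*, the second bifunctional enzyme, had 20 UMIs in all compared cells, 9 of them in SGC-like cells.

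**Figure D3:**
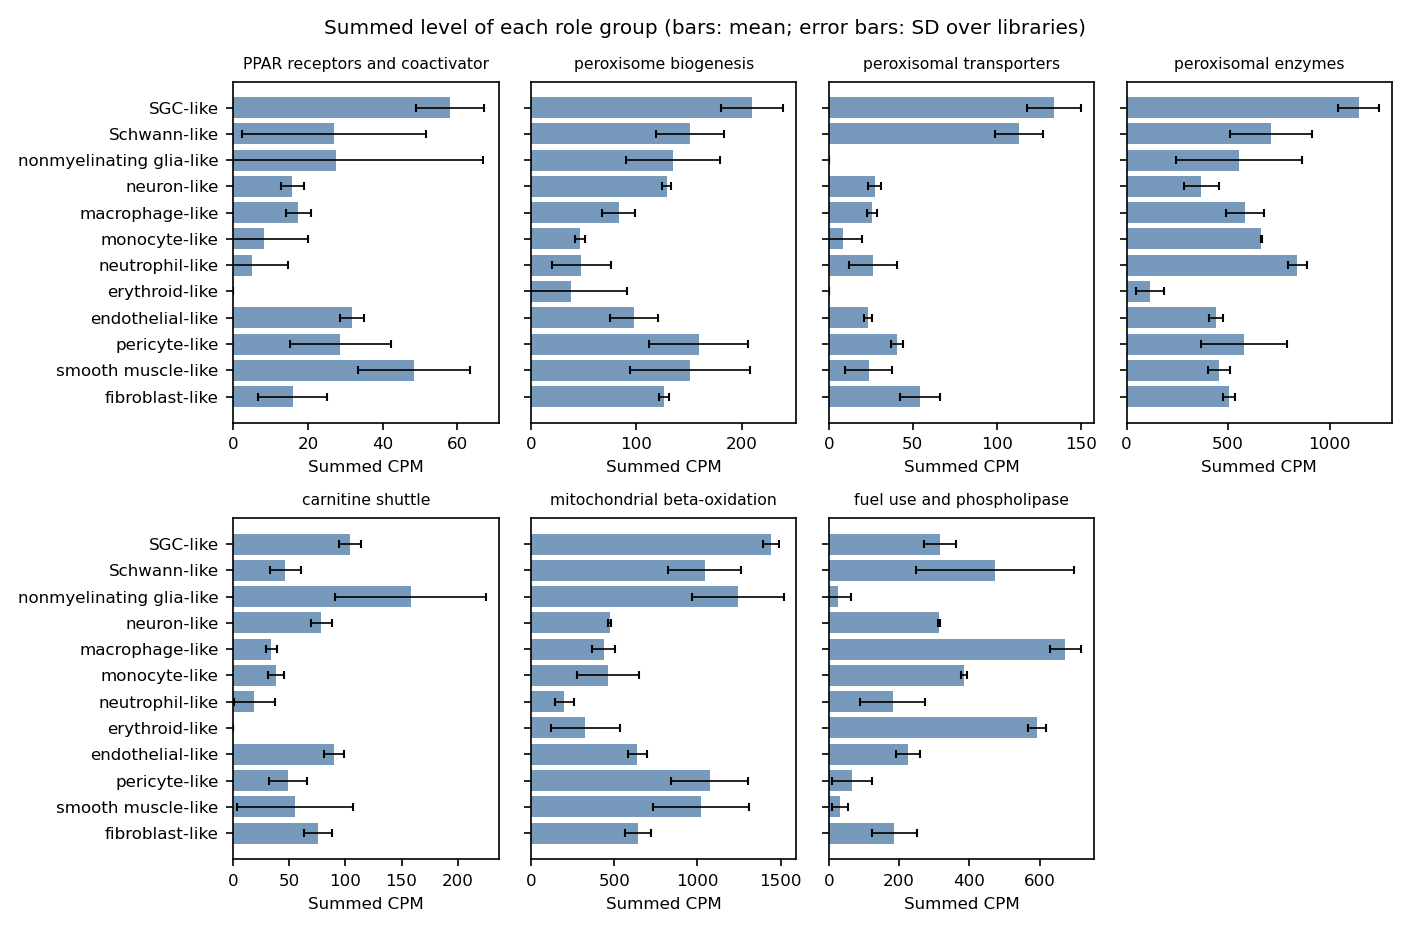
Summed CPM of the genes of each role (horizontal axes, starting at 0) by cell type, with bars for the mean and error bars for the SD over libraries. SGC-like cells have the longest bar for 5 of the 7 roles, nonmyelinating glia-like cells (3 UMIs or fewer of each gene in the libraries used) for the carnitine shuttle and macrophage-like cells for fuel use and phospholipase. Single genes make up large parts of SGC-like bars: *Ppargc1a* (41.2 of 58.0 CPM), *Pex11a* (81.9 of 209.7 CPM), *Abcd3* (128.4 of 134.1 CPM) and *Scp2* (771.0 of 1144 CPM).

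The carnitine shuttle was divided among types. *Cpt1a*, the rate-limiting carnitine palmitoyltransferase of most tissues, had nearly the same mean in SGC-like (37.5 ± 9.92 CPM) and endothelial-like cells (37.1 ± 8.52 CPM), with a difference of 0.07 ± 0.25 on the log2 scale. Endothelial-like cells exceeded macrophage-like cells by 0.86 ± 0.30 (edgeR adjusted p = 0.0162). *Cpt1c*, the isoform known from neurons, was highest in neuron-like cells at 49.4 CPM in control replicate 2 and 24.0 CPM in injury replicate 2, on 22 UMIs. SGC-like cells followed at 20.2 ± 12.0 CPM and fibroblast-like cells at 19.7 ± 6.93 CPM, and neuron-like cells were not separated from either (edgeR adjusted p = 0.12 and 0.206). Macrophage-like cells held no UMI of it. The upper limits on UMIs and genes removed most neuron-like barcodes, those with many UMIs. The median was 9365 UMIs with the limits and 21287 without. Without them 280 neuron-like cells in 4 libraries gave *Cpt1c* at 33.3 and 32.3 CPM in control and 20.9 and 22.0 CPM in injury libraries. Its fold over the other types was 3.96 ± 0.45 on the log2 scale. Those cells gave no *Ppara* UMI. They gave *Ppargc1a* at 9.35 ± 2.42 CPM, which was then enriched as well, by 2.49 ± 0.73 on the log2 scale (edgeR adjusted p = 0.00313). Neuron-like cells within the limits held a median of 2 of the 8 SGC-like markers, and whether RNA of SGC added to their *Ppargc1a* was not tested. *Slc25a20*, the carnitine carrier of the inner membrane, led in endothelial-like cells (30.3 ± 5.60 CPM) without separation from SGC-like cells (23.0 ± 9.60 CPM), and its fold over the other types, 2.07 ± 0.49 on the log2 scale, lay just above the 4-fold limit and fell below it under 9 of 13 alternatives. *Cpt2*, the enzyme that releases the acyl group inside mitochondria, ranged from 10.8 to 23.5 CPM over 8 types.

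All 9 genes of mitochondrial β-oxidation were higher in SGC-like cells than the mean of the other types at an adjusted p under 0.05, where 36.1% of all genes were. Of these 9, *Acaa2* and *Hadh* were higher by more than 4-fold, where 16.7% of all genes were. The sum of the 9 was 1442 ± 48.4 CPM in SGC-like cells, 1245 ± 274.3 CPM in the few nonmyelinating glia-like cells (n = 2), 1073 ± 234.0 CPM in pericyte-like and 1043 ± 217.5 CPM in Schwann-like cells. *Acaa2*, the thiolase of the last step, had the steadiest level, 347.9 and 333.1 CPM in control and 332.6 and 311.2 CPM in injury SGC-like cells. It was separated from all 11 other types, the nearest being pericyte-like cells at 264.4 ± 119.9 CPM (log2 difference 0.69 ± 0.23, edgeR adjusted p = 0.0229, where 20.3% of all genes were called). One pericyte-like library, at 360.9 CPM, exceeded the SGC-like ones, and without control replicate 2 the pericyte-like mean led. *Hadhb* and *Acadl*, the β-subunit of the trifunctional protein and the long-chain dehydrogenase, also led in SGC-like cells, at 287.1 ± 18.1 and 164.8 ± 19.99 CPM, and each was not separated from 2 types. *Hadhb* and *Hadha* code for the 2 subunits of one complex from starts 273 bases apart on opposite strands. *Hadha* averaged 73.1 ± 6.54 CPM in SGC-like and 73.5 ± 11.6 CPM in Schwann-like cells. The SGC-like level was separated from 4 of the other 11 types for *Hadha* and from 9 for *Hadhb*, and whether the genes differed in this was not tested.

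For the other dehydrogenases the leading type was not separated from 7 to 11 of the other types. *Acadm*, the medium-chain enzyme, stood at 213.4 CPM on 8 UMIs in nonmyelinating glia-like and at 198.1 ± 10.2 CPM on 1259 UMIs in SGC-like cells. The fitted difference had the opposite sign to these means, with SGC-like cells 1.03 ± 0.57 higher on the log2 scale (edgeR adjusted p = 0.514). For *Acadm*, SGC-like cells were separated from every type but these and smooth muscle-like cells (edgeR adjusted p = 0.729). *Acads* and *Acadvl*, the short-chain and very-long-chain enzymes, led in smooth muscle-like cells at 79.6 ± 62.4 and 133.9 ± 41.5 CPM (n = 3), without separation from 8 and 7 other types. *Hadh*, the third enzyme of the cycle, averaged 131.3 ± 26.2 CPM in SGC-like cells. This mean was below those of nonmyelinating glia-like, smooth muscle-like, pericyte-like and Schwann-like cells. The fitted log2 differences from these types (SGC-like minus other) had the opposite sign to the means. They ran from 0.13 to 0.59, none separated. The *Hadh* fold of 2.05 ± 0.23 over the mean of the others in SGC-like cells lay just above the limit. *Eci1*, the isomerase for unsaturated fatty acids, averaged 114.8 ± 14.8 CPM there and was separated from 10 of 11 types.

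Of the last group, *Ucp2*, a carrier of the inner mitochondrial membrane, was highest in erythroid-like and macrophage-like cells. Erythroid-like cells gave 611.1 and 574.2 CPM in control replicate 2 and injury replicate 2, and macrophage-like cells 391.1 and 410.3 CPM in control and 504.3 and 468.7 CPM in injury libraries. Macrophage-like cells were 1.17 ± 0.20 above SGC-like cells on the log2 scale (edgeR adjusted p = 4.03e-07), which had 242.6 ± 37.0 CPM. Neutrophil-like cells were lower, at 167.4 and 98.0 CPM in control and 147.6 and 86.1 CPM in injury libraries. *Pla2g7*, a secreted phospholipase that hydrolyses platelet-activating factor, was at 304.4 and 299.4 CPM in the 2 neuron-like samples and 229.9 ± 69.6 CPM in macrophage-like cells. These were not separated, the fitted difference of -0.25 ± 0.30 on the log2 scale (neuron-like minus macrophage-like, edgeR adjusted p = 0.557) having the opposite sign to the means. Neuron-like cells were separated from the other 10 types. Without the upper limits on UMIs and genes, 280 neuron-like cells gave *Pla2g7* at 185.5 ± 54.6 CPM (n = 4), and macrophage-like cells then led. *Pla2g7* was 1.74 ± 0.22 higher in macrophage-like than in SGC-like cells (edgeR adjusted p = 3.51e-11). *Pdk4*, a kinase that shifts fuel use towards fatty acids, had 36 UMIs in all compared cells, 16 of them in SGC-like cells (1.99 ± 1.35 CPM). Its fitted log2 differences (SGC-like minus other) ran from -2.63 to -0.73 against nonmyelinating glia-like, smooth muscle-like, Schwann-like and pericyte-like cells, none separated. They were positive against the remaining types.

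Set against each other type in turn, SGC-like cells held more of the 32 genes at a higher than at a lower level in all 11 contrasts. The shares of all genes beside the counts take in both directions. How they divide by direction was not counted, so this tilt has no background of its own. Against macrophage-like cells 19 of the 32 were higher and 5 lower, where 51.4% of all genes were called in either direction. Against endothelial-like cells 22 were higher and 1 lower (42.4% of all genes), and against fibroblast-like cells 15 and 1 (37.5%). The 25 nonmyelinating glia-like cells gave 5 higher and none lower (2.27%). The nearest type among those with 4 libraries was Schwann-like, with 8 higher, none lower and a median log2 difference of 0.57 (15.2% of all genes). Neuron-like cells gave 19 higher and 1 lower (30.7%), erythroid-like 18 and 1 (23.5%) and monocyte-like 15 and 1 (18.6%). None was lower against neutrophil-like (18 higher, 33.3%), pericyte-like (15, 20.3%) and smooth muscle-like cells (10, 17.8%). These contrasts share the SGC-like samples and are not independent of each other.

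The wider pathway was read from a list of 75 companion genes, of which 72 could be tested. In SGC-like cells 20 were more than 4-fold above the mean of the other types, where 16.7% of all genes were, and 48 were higher at an adjusted p under 0.05 (36.1% of all genes), with 1 lower. Their median log2 fold change was 1.41. Among the types with 4 libraries the number above 4-fold was 11, where 12.2% of all genes were. Of the 18 PPAR partners and targets, SGC-like cells had 7 enriched (16.7% of all genes), fibroblast-like 6 (18.2%) and neuron-like 5 (14.1%). Macrophage-like (15.5%) and pericyte-like cells (9.3%) had 4 each. At an adjusted p under 0.05 without the size limit, macrophage-like cells had 10 higher (32.3% of all genes) and SGC-like cells 9 (36.1%), with 1 lower for each type. The median log2 fold change of this group was 1.63 for macrophage-like and 1.29 for SGC-like cells. *Scd1*, a fatty acid desaturase, reached 606.5 ± 65.7 CPM in SGC-like cells. *Vldlr*, a lipoprotein receptor, was at 107.9 ± 16.7 CPM there and *Fads2*, a further desaturase, at 43.2 ± 19.8 CPM. Of the peroxisomal enzymes and membrane proteins 8 of 21 were enriched, among them *Pxmp2*, a membrane channel (49.98 ± 3.76 CPM). Of the additional biogenesis genes 1 of 12 was, *Pex11g*, and of the mitochondrial ones 4 of 21. Some companions led elsewhere. *Cd36*, a fatty acid receptor, was at 139.8 ± 43.1 CPM in macrophage-like cells, *Acsl1*, an acyl-CoA synthetase, at 118.8 ± 47.8 CPM in neutrophil-like cells, and *Ppargc1b*, a relative of PGC-1α, at 32.1 ± 6.397 CPM in smooth muscle-like cells on 10 UMIs. *Rxrg*, a retinoid X receptor, led in nonmyelinating glia-like cells on 14 UMIs (373.5 CPM). *Angptl4*, a lipase inhibitor, was shared by SGC-like (140.5 ± 33.3 CPM) and Schwann-like cells (135.6 CPM).

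The injury comparison was made within the 6 types with at least 10 cells in each library. No member was called in any of them at an adjusted p under 0.05 and a change of at least 4-fold (edgeR), and neither was more than 0.0294% of all genes, 3 genes of fibroblast-like cells and 0 in the other types. Members with an unadjusted p under 0.05 numbered 1 of 29 in SGC-like (135 of 10195 genes) and 4 of 27 in macrophage-like cells (709 of 8985). They numbered 3 of 25 in fibroblast-like (222 of 10212) and 1 of 24 in endothelial-like cells (139 of 8095). There were none in Schwann-like (80 of 3821) and neutrophil-like cells (10 of 1893), and DESeq2 also called no member. A simulated 8-fold change in SGC-like cells was recovered for 98% of 200 genes. These were drawn from genes with at least 200 UMIs there and simulated at a fixed dispersion of 0.1. Members below that count, such as *Ppara* with 38 UMIs in SGC-like cells, were not covered. In SGC-like cells 29 members could be tested. Their median log2 change was 0.07, against 0.01 over all genes, with a range from -0.33 to 1.16, and 1 had an unadjusted p under 0.05, against 135 of 10195 genes. The libraries of the groups did not overlap for 7 of the 29, near the 26.0% of all genes.

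*Ppara* had means of 3.99 CPM in control and 7.56 CPM in injury SGC-like cells, on 8 and 30 UMIs. The libraries did not overlap, and the log2 change of 1.16 ± 0.61 did not pass the test (edgeR unadjusted p = 0.0915, adjusted p near 1). *Pex11a* (80.5 and 83.4 CPM) and *Ppargc1a* (41.9 and 40.5 CPM) had log2 changes of -0.05 ± 0.34 and -0.07 ± 0.32. All 4 SGC-like libraries, control and injury, were above all 4 macrophage-like ones for *Pex11a*, *Ppargc1a*, *Ppara*, *Abcd3*, *Cat* and *Acaa2*. The same held for *Acadl*, *Acadm*, *Acadvl*, *Hadhb* and *Scp2*, among others, and the reverse for *Acox3*, *Pparg*, *Ucp2* and *Pla2g7*. The share of all genes with such a gap was not counted, and 51.4% of all genes were called in this contrast. For *Ppara* the SGC-like value of control replicate 1 rests on 1 UMI.

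**Figure D4:**
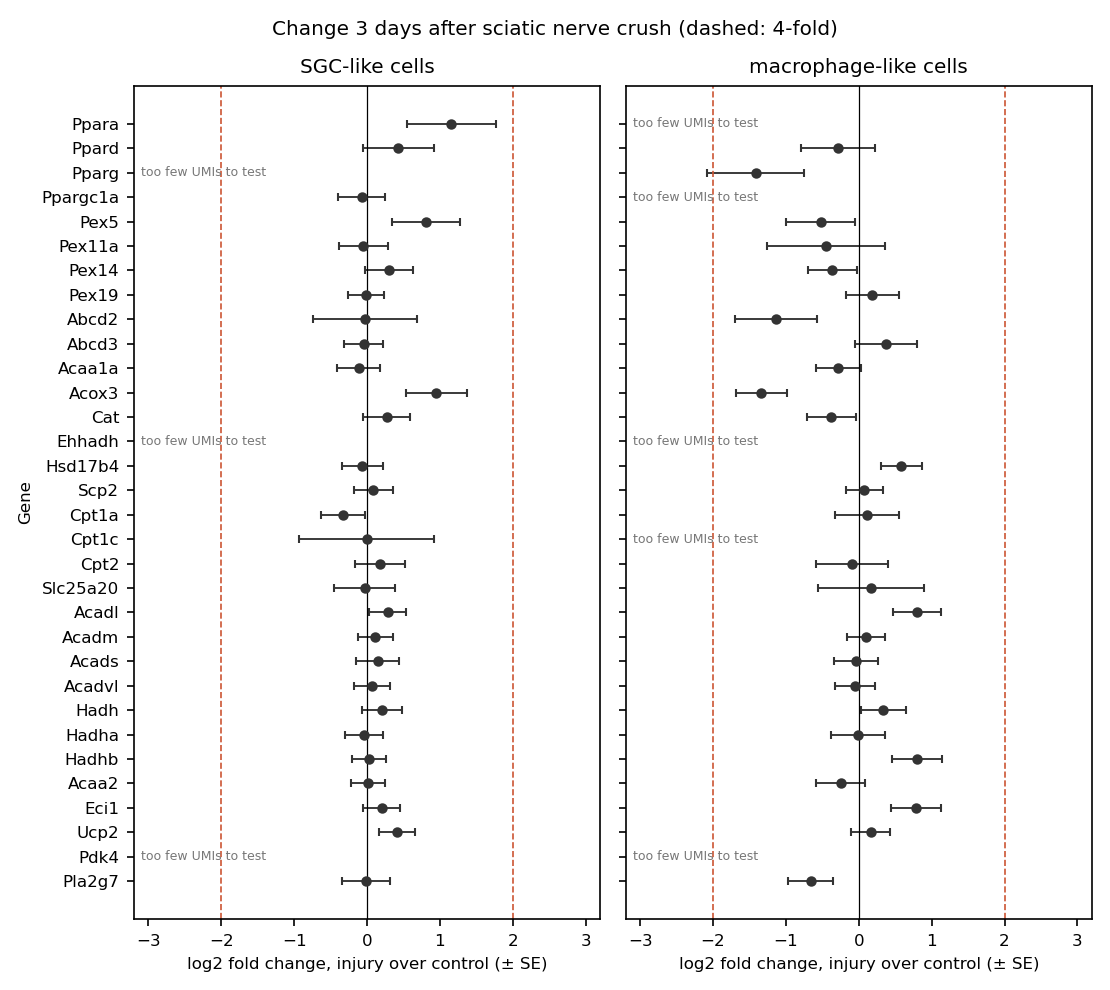
Log2 fold change of each gene 3 days after sciatic nerve crush (horizontal axes, with SE bars) in SGC-like and macrophage-like cells, with dashed lines at a 4-fold change. The SGC-like values lie between -0.33 and 1.16, and no gene of either panel reaches 4-fold.

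In macrophage-like cells 27 members were tested and the libraries of the groups did not overlap for 14, beside 39.9% of all genes. *Acox3* had the smallest p, with means of 108.3 CPM in control and 43.3 CPM in injury libraries (log2 change -1.34 ± 0.35, edgeR adjusted p = 0.381). *Pparg* went from 9.43 to 3.78 CPM on 27 UMIs (-1.41 ± 0.66, edgeR adjusted p = 0.673). *Acadl*, *Eci1* and *Hadhb* had higher means after injury, with log2 changes of 0.80, 0.79 and 0.80 that did not pass the adjustment. In fibroblast-like cells *Cpt2* (14.3 and 31.2 CPM), *Ucp2* (32.8 and 55.8 CPM) and *Pla2g7* (186.8 and 94.8 CPM) had unadjusted p-values under 0.05 and adjusted ones near 1. The endothelial-like, Schwann-like and neutrophil-like cells had 24, 18 and 3 members tested, none of them past the threshold. Without the upper limits, 28 members could be tested in neuron-like cells, and none was called (0.0698% of all genes were).

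The changes of *Acox3* ran in opposite directions in the cell types, higher in both injury libraries in SGC-like and lower in both in macrophage-like cells. The difference between them was therefore tested in a model of all 6 types with the library as a block, a test chosen after these values were seen. It was -2.41 ± 0.57 on the log2 scale (macrophage-like minus SGC-like, edgeR adjusted p = 0.0311), and *Acox3* was the only one of 31 members called, beside 0.172% of all genes. Without the library term it was -2.25 and missed the threshold (edgeR adjusted p near 1). With single libraries left out the edgeR adjusted p ran from 0.0134 to 0.986, and was above 0.05 without control replicate 2 (-1.84) and without injury replicate 2 (-1.95).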

How the data were processed

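The authors deposited UMI counts per gene and cell barcode for 4 libraries, made with Cell Ranger on mm10 per the labels, with 5585909 to 11210875 UMIs per library. Cells with 600 to 15000 UMIs, 500 to 4000 genes and at most 10% mitochondrial UMIs were kept, as in the methods of the study, and gated by 107 marker genes; no doublet caller was run. Counts were summed per library and type and tested with edgeR 4.0.16 (TMM, quasi-likelihood, Benjamini-Hochberg) in R 4.3.3 on genes with at least 20 UMIs. Contrasts between types had the library as a block, and injury was compared with control within a type. DESeq2 1.42.0, other gates, limits and filters, and leaving out single libraries served as alternatives. Shares carry exact 95% (Clopper-Pearson) intervals, and the limit for 0 is 3 counts; both cover counting error only. The tests were checked on simulated 8-fold changes of 200 well-counted genes. The contrast between types recovered 100% of them and also called 24 unchanged genes. The injury test in SGC-like cells recovered 98%, and the test of a difference in injury change between types 68.5%. The named genes are the 32 members, all accounted for, and the 10 companions with the largest fold, some of which are not reported here; *Pex11g* was named after its value was seen. The members and lists were chosen with earlier results of these data known.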

Additional observations from a re-analysis of the deposited data

Results flagged for a closer look

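*Ehhadh* in SGC-like cells had 1 library far from the others. It was at 9.403 CPM in control replicate 1 (2 UMIs in 75 cells) and at 1.87, 0.827 and 0.685 CPM in the other libraries, and the gap was 0.864 of the range, above the 95% critical value of Dixon for 4 samples. This was 1 of 19 groups examined, and chance alone gives about 1 in 20.

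For 8 pairs of cell types the libraries of a gene moved in opposite directions after injury, and each difference was tested in the model of 6 types (edgeR, log2 scale). The pairs were picked for those opposite directions, which favours large differences. The share of all genes with such a pattern was not counted. Within a single type the libraries of the groups did not overlap for 21.5 to 39.9% of all genes. *Acox3* differed by -2.41 ± 0.57 (macrophage-like minus SGC-like, adjusted p = 0.0311). *Pparg* differed by 2.43 ± 1.07 (endothelial-like minus macrophage-like), with an unadjusted p of 0.0252 and an edgeR adjusted p of 1. None of the other differences had an unadjusted p under 0.05. *Ppard* differed by -1.23 (endothelial-like minus SGC-like), *Acaa1a* by -0.71 (fibroblast-like minus Schwann-like), and *Abcd3* by -0.38 and -0.47 (endothelial-like minus Schwann-like and minus macrophage-like). *Cpt1a* differed by 0.41 (macrophage-like minus SGC-like) and by -0.64 (endothelial-like minus macrophage-like).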

How the results depend on the processing

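The number of the 32 genes enriched in any type went from 14 to 8 with filterByExpr, which together with the comparison among types with 4 libraries only was chosen after seeing the data. Genes that this filter drops were not tested, so their loss from the counts is not a change of their enrichment. In SGC-like cells it went from 10 to 5 with filterByExpr, 6 among types with 4 libraries and 6 with DESeq2. In Schwann-like cells it went from 5 to 3 with the stricter gate and 1 among types with 4 libraries, and ran from 3 (without control replicate 1) to 5 with single libraries left out. In macrophage-like cells it went from 5 to 3 with filterByExpr and 3 among types with 4 libraries. In fibroblast-like cells it went from 4 to 2 with filterByExpr, 1 with the stricter gate, 2 among types with 4 libraries and 2 with DESeq2. In endothelial-like cells it went from 2 to 0 with filterByExpr and 0 with DESeq2, to 1 without the mitochondrial limit, 1 with the stricter gate, 1 with the looser gate and 1 among types with 4 libraries, and ran from 1 (without control replicate 2 or injury replicate 2) to 2 with single libraries left out. In neuron-like cells it went from 2 to 1 with filterByExpr, while *Ppargc1a* was enriched there as well without the upper limits on UMIs and genes. Companions enriched in SGC-like cells went from 20 to 11 among types with 4 libraries. The leading type stayed as given for 18 of the 32 genes with the looser gate, and for 20 (without control replicate 2) to 27 with single libraries left out. The enrichment of *Pex11a*, *Ppargc1a* and *Cat* in SGC-like cells passed under each alternative that could be run.

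The labels do not say that a replicate number marks a batch. Same-numbered libraries were alike in makeup (83 and 110 pericyte-like cells for replicate 1, 12 and 7 for replicate 2). In SGC-like cells the deviations of same-numbered libraries from their condition means correlated at 0.258. With 2 libraries per condition, the value for differently numbered ones is its negative by construction, so it adds no evidence of pairing. With the replicate number as a block the genes called after injury went from 0 to 32 in SGC-like, 59 in macrophage-like, 9 in Schwann-like, 6 in endothelial-like and 2 in neutrophil-like cells and from 3 to 10 in fibroblast-like cells. No member was called in any type, the SGC-like median change was 0.10, and *Ppargc1a* and *Pex11a* turned to 0.0461 and 0.0138 (log2). *Pex11a* also turned to 0.00828 with DESeq2 and 0.0110 with the looser gate. With single libraries left out, *Ppargc1a* ran from -0.35 to 0.25 and *Pex11a* from -0.39 to 0.85. The *Acox3* difference between cell types was -2.25 without the library term and ran from -2.88 to -1.84 with single libraries left out. After injury, adjusted p-values under 0.05 (edgeR) with changes under 4-fold arose for *Acox3* in macrophage-like cells without the low-count filter (-1.26) and without control replicate 1 (-1.79), and for *Pla2g7* in fibroblast-like cells without control replicate 2 (-1.31). The causes were not tested. Types with few cells, and genes with few UMIs such as *Ehhadh* and *Pdk4*, limit what could be detected.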
